A study of Mus musculus with 8 samples.

Results

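Tbx3 and Tbx3os2, a noncoding RNA gene read from the opposite DNA strand just beyond the 3′ end of Tbx3, were followed across mouse embryonic stem cells that carry a suicide reporter and cells labelled Control. Both genes were taken by their symbols from the count table, as 2 of its 57010 genes (Tbx3, ENSMUSG00000018604, and Tbx3os2, ENSMUSG00000086847). They had been picked because they differ strongly between the cell groups. Their levels and fold changes are therefore given as a description with their spread, and no test is read for either gene. Both passed the filter on low counts that left 17976 genes for testing.

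The study asked what follows when cells in a 2-cell-like (2C) state, a rare state of embryonic stem cell cultures that resembles the early embryo, are removed. HSVTK cells carry herpes simplex virus thymidine kinase in a 2C reporter. This enzyme turns ganciclovir (GANC) into a poison in the cells that make it, and DMSO is the solvent control. RNA sequencing covered 4 groups of 2 libraries: Control with DMSO, Control with GANC, HSVTK with DMSO and HSVTK with GANC. The labels give neither the dose nor the duration of GANC. They leave unsaid what Control cells carry, whether the HSVTK line is 1 clone, and whether replicates were separate cultures. All p-values thus measure the spread among these 8 libraries alone, and that spread may be technical.

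Libraries held 29704460 to 34184475 counts, and the biological coefficient of variation over all genes was 6.31%. The stem cell markers Pou5f1, Sox2, Nanog, Zfp42, Esrrb, Utf1, Dppa4 and Sall4 had group means from 179.1 to 999.0 CPM (counts per 1e+06 counts of a library, scaled with TMM factors) in every group. Mitochondrial genes took 3.45 and 3.56% of counts in the HSVTK GANC libraries and 2.88 to 3.17% in the other 6. Zscan4c, a gene of the 2C state, was at 8.70 ± 0.247 CPM (SD, n = 2) in the libraries labelled HSVTK GANC and at 4.15 ± 0.786 CPM in those labelled HSVTK DMSO, which is higher under the drug meant to remove 2C-like cells. The groups are used as labelled, and every direction under GANC rests on those labels.

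Tbx3 is a T-box transcription factor that can repress or activate genes. In mouse embryonic stem cells it is known as part of the circuit that carries signals of leukaemia inhibitory factor (LIF) through PI3K and Akt to self-renewal. At high levels it has also been tied to extraembryonic endoderm, through Gata6. Long noncoding RNAs that start near such developmental genes on the opposite strand are common. In the GENCODE vM21 annotation (GRCm38), Tbx3 lies on the plus strand of chromosome 5 with 6 transcripts. Tbx3os2 lies on the minus strand with 1 transcript of 3 exons and 1345 bases. The genes face each other tail to tail, share no exon base and are 370 bases apart. A second antisense gene, Tbx3os1, has 6 transcripts and shares 115 exon bases with Tbx3. No source used here says whether strand was used in counting, so over those bases the reads of Tbx3 and Tbx3os1 cannot be told apart. The gene lengths deposited with the counts were 1365 bases for Tbx3os2 and 3911 for Tbx3os1, against 1345 and 3167 in this annotation. The models counted thus differed from these, and the overlaps and the gap may differ for them.

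The starts of the antisense genes are shown because both genes, like Tbx3, were higher in each HSVTK library than in each Control library. Among Tbx3, Tbx3os1 and Tbx3os2, the 2 antisense genes matched an entry of the RefSeq promoter table (GRCm38.p6). Each window holds 300 bases of the minus strand, at chr5:119671459-119671758 for Tbx3os1 and chr5:119691169-119691468 for Tbx3os2, read 5′ to 3′. Capitals mark the 50 bases from the annotated start onward.
Tbx3os1: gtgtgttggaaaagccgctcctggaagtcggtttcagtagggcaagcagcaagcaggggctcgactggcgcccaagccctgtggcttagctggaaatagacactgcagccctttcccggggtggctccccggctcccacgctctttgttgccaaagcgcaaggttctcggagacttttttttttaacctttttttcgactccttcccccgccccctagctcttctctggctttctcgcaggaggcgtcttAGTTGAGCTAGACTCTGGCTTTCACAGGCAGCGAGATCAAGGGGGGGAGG
Tbx3os2: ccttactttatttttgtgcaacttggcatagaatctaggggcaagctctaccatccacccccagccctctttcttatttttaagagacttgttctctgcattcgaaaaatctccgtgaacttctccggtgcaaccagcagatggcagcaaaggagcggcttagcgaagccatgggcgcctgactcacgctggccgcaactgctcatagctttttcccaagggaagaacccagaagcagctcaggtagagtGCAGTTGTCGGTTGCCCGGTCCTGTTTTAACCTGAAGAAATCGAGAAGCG
The Tbx3os2 window is 50.67% G and C with 12 CpG sites, and that of Tbx3os1 57.33% with 14. The medians over 32851 promoters of that length are 52.67% and 7 sites. Neither window holds the T-box site TCACACC on either strand, which 3.979% of all promoters hold. The letters of the TCF/LEF site CTTTGAT (3.729% of promoters) and of the STAT site TTCNNNGAA (8.298%) were not in these windows either. The same was found for the KLF site GGGTGTG (7.954%), the octamer ATTTGCAT (1.735%) and the E-box CACGTG (7.15%).

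Tbx3 was several times higher in HSVTK than in Control cells under both treatments, and GANC moved it little by comparison. In Control DMSO, the libraries had 50.0 and 47.8 CPM of Tbx3, from 1626 and 1399 counts. In Control GANC they had 60.8 and 64.5 CPM. In HSVTK DMSO they had 186.8 and 183.8 CPM, from 5996 and 6292 counts, and in HSVTK GANC 179.9 and 163.7 CPM. All 4 HSVTK libraries thus lay above all 4 Control libraries, as the plot of levels by library shows.

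Under DMSO, Tbx3 was 3.78-fold higher in HSVTK than in Control cells (log2 fold change 1.92 ± 0.07, SE). The ratio of single libraries ran from 3.67 to 3.91. Under GANC the fold was 2.74 (log2 1.46 ± 0.07), with ratios of 2.54 to 2.96. In these bulk libraries, more RNA per cell and more cells with Tbx3 cannot be told apart. The libraries did not overlap in either comparison. Of all tested genes, 33.7% were likewise higher in HSVTK without overlap under DMSO and 30.2% under GANC, and nothing is read from that count for genes picked on this difference. By size, 2.80% of tested genes had a larger absolute log2 fold change than Tbx3 under DMSO, and 4.82% under GANC.

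Treatment with GANC went with small and opposite shifts of Tbx3 in the cell groups. In Control cells it was 1.28-fold higher with GANC than with DMSO (log2 0.36 ± 0.07). In HSVTK cells the log2 change was -0.11 ± 0.06. On the CPM scale the libraries did not overlap in either case. As background, 25% of tested genes were higher without overlap with GANC in Control cells, and 31.9% were lower without overlap in HSVTK cells. By size, 27.0% of tested genes had a larger absolute log2 change with GANC than Tbx3 in Control cells, and 76.2% in HSVTK cells. The response in HSVTK minus that in Control cells was -0.46 ± 0.10 on the log2 scale, and 42.2% of tested genes had a larger absolute difference. In order of level, the groups ran Control DMSO, Control GANC, HSVTK GANC and HSVTK DMSO. The gap of 13.7 CPM between the Control groups exceeded their summed SD of 4.19 CPM, whereas that of 13.5 CPM between the HSVTK groups did not exceed their 13.6 CPM.

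On the FPKM scale, which also divides by gene length, Tbx3 was at 7.26 ± 0.212 (SD, n = 2) with DMSO and 9.35 ± 0.305 with GANC in Control cells. In HSVTK cells it was at 28.0 ± 0.307 with DMSO and 26.6 ± 1.73 with GANC. Without TMM factors on this scale, the HSVTK libraries of both treatments overlapped, at 27.7933 in GANC replicate 1 and 27.7869 in DMSO replicate 2. Ranked among all tested genes by FPKM, it moved from the 70.1th percentile in Control DMSO to the 89.1th in HSVTK DMSO.

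**Figure D1:**
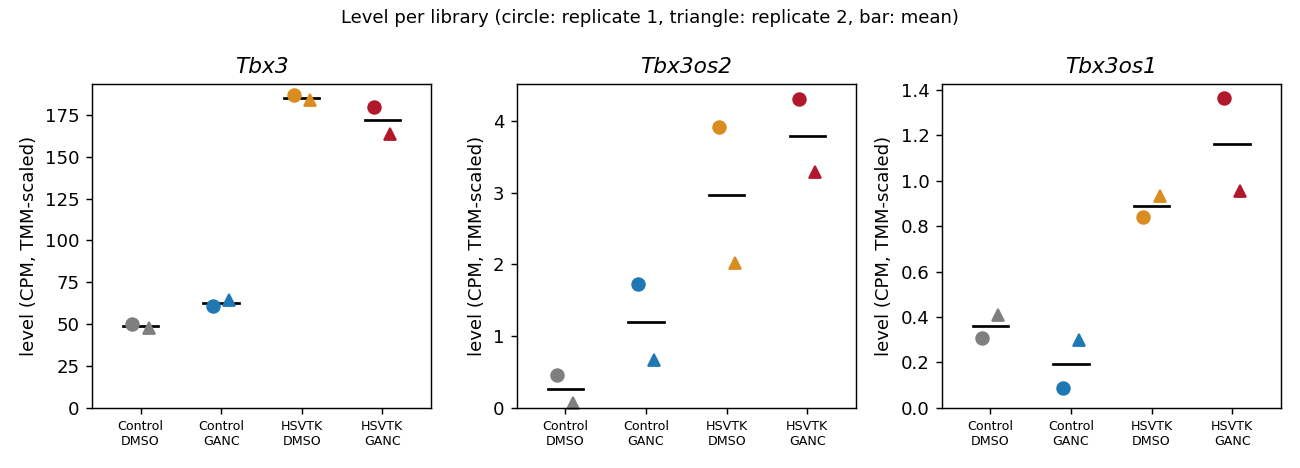
Levels of Tbx3, Tbx3os2 and Tbx3os1 in CPM (vertical axes from 0, a different range for each gene) in the 2 libraries of each group, with a bar at their mean. For each of the 3 genes every HSVTK library lies above every Control library with the same treatment, from 183.8 against 50.0 CPM for the closest DMSO libraries of Tbx3.

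Tbx3os2 had far fewer counts but was also higher in HSVTK cells. In Control DMSO the libraries had 15 and 2 counts of Tbx3os2 (0.462 and 0.0684 CPM), and in Control GANC 58 and 20 counts (1.73 and 0.663 CPM). In HSVTK DMSO they had 126 and 69 counts (3.93 and 2.02 CPM), and in HSVTK GANC 136 and 110 counts (4.31 and 3.29 CPM). All HSVTK libraries lay above all Control libraries, but replicates of a group differed by much more than those of Tbx3. In each of the 4 groups the library numbered 1 held more Tbx3os2 than the library numbered 2, and the labels do not say what the numbers share.

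Under DMSO, Tbx3os2 was 10.7-fold higher in HSVTK than in Control cells (log2 3.42 ± 0.49), but the ratio of single libraries ran from 4.36 to 57.4. The log2 value was 5.36 without Control DMSO replicate 1 and 2.68 without Control DMSO replicate 2. Under GANC the fold was 3.13 (log2 1.65 ± 0.38), with ratios of 1.91 to 6.5, and the log2 value was 2.49 without Control GANC replicate 1. In Control cells Tbx3os2 was 4.37-fold higher with GANC than with DMSO (log2 2.13 ± 0.54). That log2 value ranged from 1.28 without Control GANC replicate 1 to 4.07 without Control DMSO replicate 1. In HSVTK cells the libraries of both treatments overlapped (log2 0.36 ± 0.35), and the value ran from -0.06 without HSVTK DMSO replicate 2 to 0.90 without HSVTK DMSO replicate 1. The response in HSVTK minus that in Control cells was -1.77 ± 0.65, and it ran from -3.72 to -0.93 without Control DMSO replicate 1 and without Control GANC replicate 1, respectively.

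The group means of Tbx3os2 were 0.265 ± 0.278, 1.19 ± 0.751, 2.97 ± 1.35 and 3.80 ± 0.724 CPM (SD, n = 2) in Control DMSO, Control GANC, HSVTK DMSO and HSVTK GANC. No neighbours in that order differed by more than their summed SD. Summed over a group's libraries, the counts were 17, 78, 195 and 246. The exact 95% Poisson intervals of these sums, as CPM, were 0.160 to 0.441, 0.967 to 1.53, 2.54 to 3.38 and 3.33 to 4.29, and they cover counting error only. On the FPKM scale Tbx3os2 was at 0.191 ± 0.200 in Control DMSO and 2.85 ± 0.539 in HSVTK GANC, against 7.26 and 26.6 for Tbx3.

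As a share of the counts of Tbx3 and Tbx3os2 together, Tbx3os2 took 0.914 and 0.143% in the Control DMSO libraries. With GANC its share in Control cells was 2.76 and 1.02%. In HSVTK cells it was 2.06 and 1.08% with DMSO and 2.34 and 1.97% with GANC. The exact binomial 95% intervals, 0.512 to 1.5% and 0.0173 to 0.515% in Control DMSO, lay below those of both HSVTK GANC libraries, 1.97 to 2.76% and 1.62 to 2.37%. The highest share of any library was in Control GANC replicate 1, with an interval of 2.1 to 3.55%. The mean share was 1.89 ± 1.23% (SD, n = 2) in Control GANC and 2.16 ± 0.263% in HSVTK GANC, so the cell groups differed by less than the spread between replicates under that treatment. Under DMSO the means were 0.528 ± 0.545% and 1.57 ± 0.688%, a gap that was also within the summed SD. In Control GANC and in HSVTK DMSO the intervals of replicate libraries did not overlap each other, so the proportion of Tbx3os2 to Tbx3 differed between libraries of a single group by more than counting error.

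**Figure D2:**
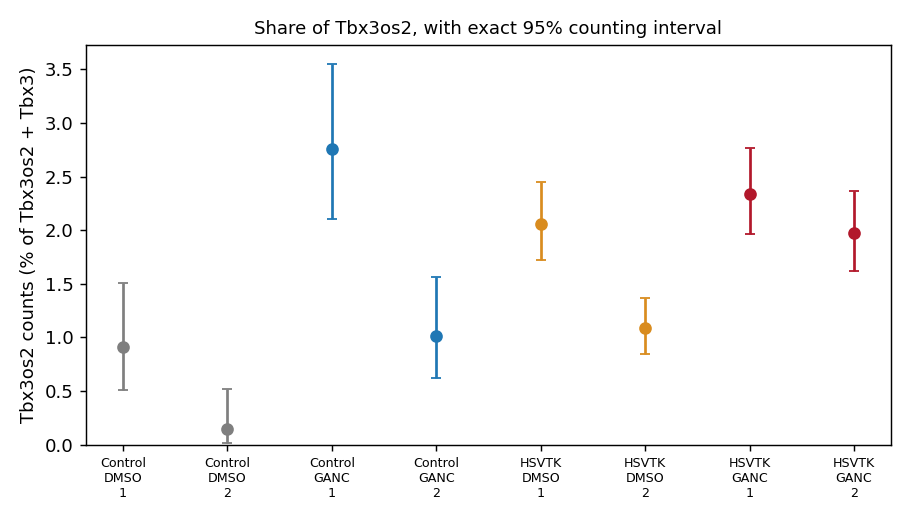
Tbx3os2 counts as a percentage of the counts of Tbx3os2 and Tbx3 together (vertical axis) in each of the 8 libraries, with exact 95% binomial intervals that cover counting error only. Control DMSO replicate 2 is lowest at 0.143% and Control GANC replicate 1 highest at 2.76%, and in each group replicate 1 lies above replicate 2.

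Tbx3os1, the antisense gene that overlaps Tbx3, was not used to choose the pair. It had 10 and 12 counts with DMSO and 3 and 9 with GANC in Control cells, and 27 and 32 with DMSO and 43 and 32 with GANC in HSVTK cells. The HSVTK libraries were above the Control libraries throughout. By edgeR's quasi-likelihood test with Benjamini-Hochberg adjustment over all tested genes, used for every adjusted p here, it was higher in HSVTK cells under GANC (log2 2.58 ± 0.59, adjusted p = 0.0015). Under DMSO the log2 value was 1.30 ± 0.55 and missed the threshold of 0.05 (adjusted p = 0.0686). In Control cells the GANC value for Tbx3os1 was -0.90 ± 0.66 (adjusted p = 0.468), and for Tbx3os2 it was 2.13. The shared exon bases with Tbx3 apply to each of these values, and their part was not tested.

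Of the 19 other genes among the nearest 10 on each side of Tbx3, 3 passed the filter: Tbx3os1, the noncoding Gm16063 and Rbm19, which encodes an RNA-binding protein of ribosome assembly. Rbm19, a gene at a level like that of Tbx3 in Control cells, did not share its difference. It was at 66.0 ± 1.05 CPM in Control DMSO and 54.0 ± 3.21 CPM in HSVTK DMSO (log2 -0.29 ± 0.08, adjusted p = 0.00481), a call lost without Control DMSO replicate 1 (adjusted p = 0.0522) or HSVTK DMSO replicate 1 (adjusted p = 0.122). Under GANC its log2 value was -0.20 ± 0.08 (adjusted p = 0.0571). Gm16063 had 2 to 33 counts per library and a log2 value of 2.16 ± 0.80 under DMSO (adjusted p = 0.0376). That call was lost with Control DMSO replicate 1 left out (adjusted p = 0.287), with HSVTK DMSO replicate 2 left out (0.440) and with HSVTK GANC replicate 1 left out (0.0597), and the value was 3.37 without Control DMSO replicate 2. The call was also lost by DESeq2 on all libraries (adjusted p = 0.0637) and by limma on log2(FPKM + 1) (0.0676) and log2(FPKM + 0.1) (0.0557). Tbx5, the neighbouring T-box gene that patterns heart and forelimb, had 0 to 4 counts per library.

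Of the other T-box genes, 16 were in the table and 10 were tested. In HSVTK against Control cells under DMSO none of the 10 was called higher by edgeR and 1 was called lower, where 16.4% of all tested genes were called higher and 17.3% lower (33.7% in all). The count higher was 0 also at an unadjusted p below 0.05 and by DESeq2. It was 1 without HSVTK DMSO replicate 2, without either Control GANC library and without either HSVTK GANC library. The gene called lower was Tbx20 (log2 -1.88 ± 0.45, adjusted p = 0.00169), which was at -3.65 without HSVTK DMSO replicate 1 and no longer called without HSVTK DMSO replicate 2 (adjusted p = 0.0659). Under GANC Tbx20 was higher and Eomes lower, where 11.1% of all were called higher and 14.9% lower (26.1% in all). Tbx2, the closest relative of Tbx3, had 0 to 13 counts per library. Of the tested family members, Mga alone, whose large protein pairs with Max, was at a level near that of Tbx3. Per length, Mga was at 12.7 FPKM and Tbx3 at 7.26 FPKM in Control DMSO, and Mga at 12.9 and Tbx3 at 28.0 FPKM in HSVTK DMSO. In log2 fold change between the cell groups, Mga was at 0.00 ± 0.08 under DMSO (adjusted p = 0.988) and 0.03 ± 0.08 under GANC (adjusted p = 0.841). With GANC against DMSO, Mga was called lower in Control cells (log2 -0.25) and in HSVTK cells (log2 -0.23). Both of these calls were lost by DESeq2 (adjusted p = 0.268 and 0.269). Eomes, a T-box factor of the primitive streak and trophoblast, was at 5.62 ± 0.509, 5.68 ± 0.969, 7.13 ± 0.122 and 3.85 ± 0.0297 CPM in Control DMSO, Control GANC, HSVTK DMSO and HSVTK GANC. The fall of Eomes with GANC in HSVTK cells was called (log2 -0.89 ± 0.17, adjusted p = 0.00028). In HSVTK against Control cells under GANC, both calls were lost without HSVTK GANC replicate 1 (adjusted p = 0.143 for Tbx20 and 0.0703 for Eomes), and that of Eomes also without HSVTK GANC replicate 2 (0.0897) or Control GANC replicate 2 (0.226). The call of Tbx20 was also lost by DESeq2 (adjusted p = 0.225), and that of Eomes on log2(FPKM + 1) (0.0877). Tbx20, a T-box factor of the heart, was at 0.417 ± 0.424 CPM in HSVTK DMSO and 3.80 ± 0.898 CPM in HSVTK GANC (log2 3.20 ± 0.42, adjusted p = 1.35e-06). That log2 value was 4.97 without HSVTK DMSO replicate 1.

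A list of 12 genes has been tied to Tbx3 in earlier work, as its targets or as genes that respond to it. In HSVTK against Control cells under DMSO 5 of the 12 were higher, 4 were lower and 3 were not called, where 16.4% of all tested genes were called higher and 17.3% lower. Under GANC 7 were higher and 5 lower, where 11.1% and 14.9% of all were. Without HSVTK DMSO replicate 2, the 5 higher under DMSO became 3, and the 5 lower under GANC became 2 on log2(FPKM + 1) with no filter on low genes. Their median log2 fold change was 0.02 under DMSO and 0.38 under GANC, beside 0.0031 and 0.01 over all tested genes. The list was chosen with earlier results of these data known, so its count is no independent evidence of a direction.

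Gata6, a transcription factor that specifies primitive endoderm, had the largest log2 fold changes of the list between the cell groups, at low levels. In Control cells it was at 0.176 ± 0.0556 CPM with DMSO and 0.0961 ± 0.0517 with GANC, and in HSVTK cells at 1.91 ± 0.147 and 1.52 ± 0.220. The log2 difference between HSVTK and Control cells was 3.40 ± 0.50 under DMSO (adjusted p = 3.70e-06) and 3.95 ± 0.56 under GANC (adjusted p = 3.68e-06). The Control levels rest on few reads, so the size of both log2 values is uncertain. In every group the levels of Gata6 stayed far below those of Tbx3. Dppa3, a maternal factor that guards DNA methylation in the early embryo, went the other way, from 7.12 ± 0.686 CPM in Control DMSO to 2.70 ± 0.687 CPM in HSVTK DMSO (log2 -1.40 ± 0.20, adjusted p = 1.95e-06). Under GANC its log2 value was -2.52 ± 0.21 (adjusted p = 1.78e-10).

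The enzymes of DNA methylation on the list moved in opposite directions. Dnmt3b, which adds methyl groups to DNA, was at 262 ± 1.05 CPM in Control DMSO and 199.8 ± 3.41 CPM in HSVTK DMSO (log2 -0.39 ± 0.06, adjusted p = 6.86e-06). Under GANC its difference was -0.72 ± 0.06 (adjusted p = 2.54e-10). Tet2, which oxidizes methylated cytosine, was at 107 ± 6.26 and 162 ± 9.06 CPM under DMSO (log2 0.60 ± 0.07, adjusted p = 6.26e-08). Under GANC its difference was 0.84 ± 0.07 (adjusted p = 2.02e-10). Both enzymes were thus called in the same direction under both treatments.

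The list also held cell-cycle inhibitors and an adhesion gene. Cdkn1a, which encodes the cell-cycle inhibitor p21, was lower in HSVTK cells under DMSO (log2 -0.68 ± 0.09, adjusted p = 1.07e-06) and under GANC (-0.43 ± 0.09, adjusted p = 0.000602). Cdkn2a, which encodes the inhibitors p16 and p19Arf, had log2 values of 0.04 ± 0.17 under DMSO (adjusted p = 0.881) and 0.54 ± 0.17 under GANC (adjusted p = 0.015). The latter call was lost without Control GANC replicate 1 (adjusted p = 0.141), HSVTK GANC replicate 1 (0.0612) or HSVTK GANC replicate 2 (0.0834). Cdh1, the E-cadherin gene, was higher under DMSO (0.30 ± 0.06, adjusted p = 0.000208). Under GANC it was at -0.17 ± 0.06, a call lost without Control GANC replicate 2 (adjusted p = 0.0708) or HSVTK GANC replicate 2 (0.233). It was also lost with library size scaling (adjusted p = 0.147), in a fit of the 4 GANC libraries alone (0.117) and on log2(FPKM + 1) (0.167).

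Nanog, a core pluripotency factor, and the 2C genes completed the list. Nanog was at 0.18 ± 0.05 under DMSO and 0.22 ± 0.05 under GANC on the log2 scale. Its DMSO call was lost without Control DMSO replicate 1 (adjusted p = 0.139), HSVTK DMSO replicate 1 (0.0866) or HSVTK DMSO replicate 2 (0.0775), and its GANC call without HSVTK GANC replicate 2 (0.0652). Under GANC, Zscan4c (0.93 ± 0.18, adjusted p = 0.000237), Zscan4d (1.26 ± 0.17, adjusted p = 1.09e-06) and Zscan4f (1.21 ± 0.21, adjusted p = 7.57e-05) were higher in HSVTK cells. Under DMSO the values of Zscan4c (-0.18 ± 0.19, adjusted p = 0.516) and Zscan4f (0.01 ± 0.21, adjusted p = 0.984) missed the threshold. Zscan4d was called under DMSO (0.66 ± 0.17, adjusted p = 0.00363), but not without Control DMSO replicate 2 (adjusted p = 0.0739) or HSVTK DMSO replicate 2 (0.0609). The Zscan4 genes are near-identical copies whose reads the counting could have split between them, so their single values are uncertain.

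**Figure D3:**
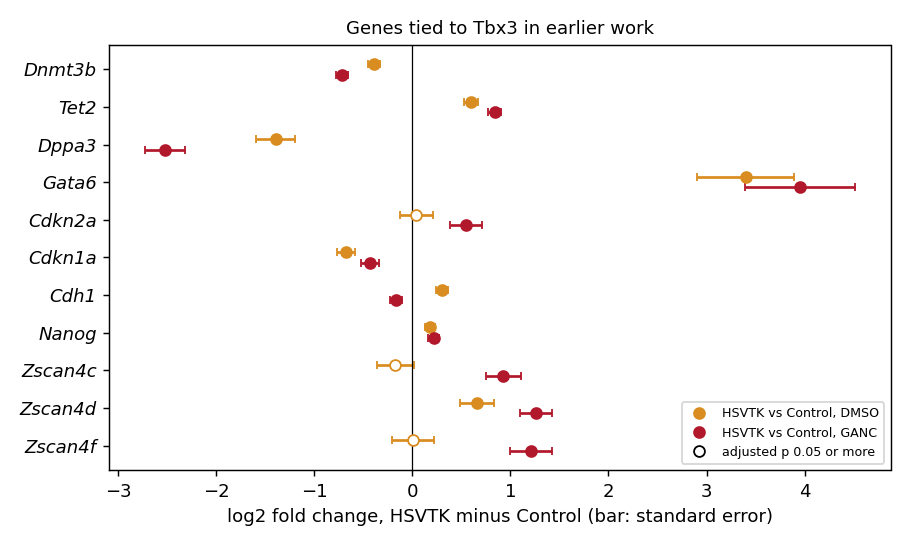
Log2 fold change of HSVTK against Control cells (horizontal axis, bars are standard errors) for 11 of the 12 genes tied to Tbx3 in earlier work, under DMSO and under GANC. Open circles have an adjusted p of 0.05 or more. Gata6, which had few reads in Control cells, is highest at 3.40 and 3.95 and Dppa3 lowest at -1.40 and -2.52.

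Genes of the pathways that feed into Tbx3 went in both directions. Of 27 genes of LIF, JAK and STAT3, and PI3K signalling, 9 were higher and 6 lower in HSVTK than in Control cells under DMSO, and 2 were higher and 11 lower under GANC. Of all tested genes, 16.4% were higher and 17.3% lower under DMSO, and 11.1% and 14.9% under GANC. The 2 were Foxo3 and Tcl1, named here for the small count. The medians were 0.06 and -0.15 on the log2 scale. With GANC in HSVTK cells 4 rose and 12 fell, where 13.3% of all tested genes rose and 15.2% fell (28.5% in all). In Control cells 5 rose and 1 fell, where 4.73% of all rose and 3.35% fell (8.08% in all). The difference of both responses was positive for 2 and negative for 9, where 11.6% and 14% of all were (25.6% in all). Single libraries moved these counts. The 6 lower under DMSO became 1 without Control DMSO replicate 1 and 2 without HSVTK DMSO replicate 1, and the 11 lower under GANC became 7 without Control GANC replicate 1. In HSVTK cells the 12 that fell became 7 without HSVTK DMSO replicate 1, and the 4 that rose became 2 without either HSVTK DMSO library or HSVTK GANC replicate 1. In Control cells the 5 that rose became 1 without either Control DMSO library and 3 without Control GANC replicate 2, and the 1 that fell became 2 without Control GANC replicate 1. The 2 positive differences became 0 without Control DMSO replicate 1 or HSVTK DMSO replicate 2. They became 1 without HSVTK GANC replicate 1.

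Receptors of this pathway fell with GANC in HSVTK cells, where the log2 change of Tbx3 was -0.11, and a link between them was not tested. Il6st, the shared signal chain of the LIF receptor, went from 124 ± 1.11 CPM in HSVTK DMSO to 75.1 ± 1.63 CPM in HSVTK GANC (log2 -0.72 ± 0.07, adjusted p = 2.25e-08). Lifr, the LIF receptor itself, went from 93.3 ± 3.66 to 57.1 ± 1.77 CPM (log2 -0.71 ± 0.08, adjusted p = 1.06e-07). Pim1, a kinase gene induced by STAT3, fell by a similar amount (log2 -0.71 ± 0.07, adjusted p = 9.62e-09). Under DMSO, Il6st (0.57 ± 0.07, adjusted p = 5.34e-07) and Lifr (0.45 ± 0.08, adjusted p = 5.41e-05) were higher in HSVTK than in Control cells. Under GANC, where Tbx3 was still higher in HSVTK cells, Il6st was called lower in them (log2 -0.32). That call was lost by limma on log2(FPKM + 1) (adjusted p = 0.0883). Pim1 was also called lower in HSVTK cells under GANC, and Lifr was not called.

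Klf4, another factor that LIF supports in these cells, was higher in HSVTK cells under DMSO, at 130 ± 4.18 against 74.5 ± 0.419 CPM (log2 0.80 ± 0.07, adjusted p = 2.84e-10). Under GANC its value of 0.18 ± 0.07 missed the threshold (adjusted p = 0.0539). Among 21 naive pluripotency factors, 6 were higher and 6 lower under DMSO (16.4% and 17.3% of all tested genes), and 5 and 5 under GANC (11.1% and 14.9% of all). On log2(FPKM + 1) with no filter, 3 were lower under each treatment. Of 20 tested factors of the formative and primed states, 6 were higher and 6 lower under DMSO, and 2 and 11 under GANC. The shares of all tested genes called were those just given. The medians of these 20 were -0.06 and -0.34 on the log2 scale, beside 0.0031 and 0.01 over all tested genes. With no filter on log2(FPKM + 1), the 11 became 8 and the 2 became 1. Tfap2c, a factor of naive cells and trophectoderm, was at 0.04 ± 0.09 under DMSO (adjusted p = 0.768) and lower under GANC (-1.03 ± 0.09, adjusted p = 9.68e-10). A link of these factors to the level of Tbx3 was not tested.

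Of 25 tested genes of the Wnt pathway, another regulator of Tbx3 in stem cells, 8 were higher and 5 lower under DMSO (16.4% and 17.3% of all tested genes), and 6 and 6 under GANC (11.1% and 14.9% of all). Tcf7l1, the repressor that holds back pluripotency genes, was lower under both treatments (-0.74 ± 0.09, adjusted p = 1.18e-07, and -0.93 ± 0.09, adjusted p = 2.99e-09). Cdx1, a caudal-type factor induced by Wnt, was higher under both (2.24 ± 0.26, adjusted p = 6.23e-08, and 1.20 ± 0.23, adjusted p = 0.000195). Lef1, a DNA-binding partner of beta-catenin, was higher under DMSO (1.21 ± 0.12, adjusted p = 1.89e-09) and lower under GANC (-1.46 ± 0.12, adjusted p = 3.92e-10). Sp5, a direct Wnt target, was lower under DMSO (-2.46 ± 0.29, adjusted p = 1.31e-07). Under DMSO, Cdx1 and Lef1 were thus higher, and the repressor Tcf7l1 and the target Sp5 lower. A link of these genes to the level of Tbx3 was not tested.

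Of 23 tested genes of ERK feedback, 8 were higher and 5 lower under DMSO (16.4% and 17.3% of all tested genes), and 5 and 11 under GANC (11.1% and 14.9% of all). The 8 became 5 without Control DMSO replicate 2. The 11 became 7 without HSVTK GANC replicate 2 and 6 on log2(FPKM + 1) with no filter. Spred1, an inhibitor of Ras and ERK signalling, was lower in HSVTK cells under both (-0.91 ± 0.06, adjusted p = 4.18e-12, and -0.83 ± 0.06, adjusted p = 4.76e-11). Egr1, an early response gene, was higher under DMSO (0.76 ± 0.09, adjusted p = 7.65e-08) and lower under GANC (-1.32 ± 0.10, adjusted p = 1.90e-11).

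Markers of extraembryonic endoderm, the lineage to which high Tbx3 has been tied, were called under DMSO at a share near that of all genes. Those called were more often higher than lower. Of 21 tested, 6 were higher and 1 lower in HSVTK cells under DMSO, or 33.3% called beside 33.7% of all tested genes (16.4% higher and 17.3% lower). Under GANC 10 were higher and 1 lower, where 11.1% and 14.9% of all were, and the 10 became 4 on log2(FPKM + 1) with no filter. The gene lower under GANC was Lamb1, a laminin chain named for the small count. The medians were 0.33 and 0.40 on the log2 scale, beside 0.0031 and 0.01 over all tested genes. Col4a1 and Col4a2, the type IV collagen chains of basement membrane, were among the higher ones under DMSO (1.79 ± 0.14, adjusted p = 6.29e-11, and 2.04 ± 0.21, adjusted p = 8.39e-09). Apoe, a lipid carrier, was the gene called lower there (-0.98 ± 0.07, adjusted p = 1.73e-12), and without either Control GANC library 2 genes were. Among defining markers of the lineage, Ttr had no count in any library and Afp had 0 to 4. The summed level of all 23 markers in Control cells was 1040 to 1089 CPM with DMSO and 969 to 1040 with GANC, and in HSVTK cells 894 to 904 and 1090 to 1185 CPM. The sum was lowest in HSVTK DMSO. Apoe, which went against the other called markers there, was at 453 ± 27.2 CPM in Control DMSO and 231 ± 16.8 CPM in HSVTK DMSO, a gap larger than that of the sums.

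Markers of other lineages were summed in the same way. Mesendoderm markers, 21 in the table, summed to 833 to 843 CPM with DMSO and 1008 to 1027 with GANC in Control cells, and to 1576 to 1614 and 1017 to 1090 CPM in HSVTK cells. Tdgf1, the Nodal co-receptor, had most of that sum in HSVTK DMSO, where it was at 1303 ± 17.9 CPM against 560 ± 3.69 in Control DMSO (log2 1.22 ± 0.05, adjusted p = 1.81e-16). The 18 fibroblast and feeder genes summed to 760 to 765 CPM in Control DMSO and 892 to 896 CPM in HSVTK DMSO, and to 877 to 887 and 746 to 767 CPM in the GANC groups. Among them Col3a1 had 0 to 6 counts per library, Dcn 0 to 4, and Lum and Postn 0 to 2. Of the 8 tested, 4 were higher and 1 lower in HSVTK than in Control cells under DMSO, where 16.4% and 17.3% of all tested genes were. The called ones included Fn1, Thy1, Pdgfrb and Col5a1. Under GANC 1 was higher and 2 were lower, where 11.1% and 14.9% of all were. With library size scaling those 2 became 1. The 20 trophectoderm markers summed to 113 to 117 CPM in Control DMSO and 117 to 122 in Control GANC. In HSVTK DMSO and HSVTK GANC they summed to 113 to 117 and 95.4 to 99.8 CPM. Tpbpa and Dppa1 had 0 counts. Of 16 tested, 3 were higher and 2 lower in HSVTK cells under DMSO, and 2 and 5 under GANC. The 15 neuroectoderm markers summed to 185 to 196 and 154 to 170 CPM in Control DMSO and Control GANC. In HSVTK DMSO and HSVTK GANC the sums were 130 to 139 and 158 to 168 CPM. Of 9 tested, 0 were higher and 3 lower under DMSO, and 1 and 3 under GANC. The shares of all genes called were as above. The part of these markers in the values of Tbx3 was not tested.

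The genes whose pattern was most like that of Tbx3 were found from log2 CPM centred on the mean of the 8 libraries, among 13463 genes with a mean of at least 1 CPM. Likeness is the root mean square difference over the 8 libraries, in log2 units. The 10 nearest included Nt5e (0.15), Hal (0.17), Inhbb (0.17), Tns1 (0.20), Col4a1 (0.20), Pcsk6 (0.21), Cplx1 (0.24), Col4a2 (0.24) and Cd74 (0.25). Their differences between groups follow from that choice and have no test, apart from Col4a1 and Col4a2, which were tested above as lineage markers. Nt5e, the ecto-nucleotidase CD73, was at 3.28 ± 0.0998, 4.11 ± 0.416, 13.0 ± 2.45 and 13.6 ± 1.37 CPM in Control DMSO, Control GANC, HSVTK DMSO and HSVTK GANC. Inhbb, which encodes a subunit of activin B, was at 20.2 ± 0.562, 29.1 ± 1.93, 70.8 ± 0.846 and 89.7 ± 7.72 CPM. Pcsk6, a protease that matures ligands of the TGF-beta family, was at 14.9 ± 1.55, 22.1 ± 1.09, 46.5 ± 2.87 and 44.6 ± 2.08 CPM. On log2(FPKM + 1), which shrinks the values of low genes, 3 of the 10 nearest were shared with this list, namely Inhbb, Pcsk6 and Hal.

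The 5 genes nearest to the mirror image of Tbx3 were Txlnb (0.13), Sh3bgrl (0.15), Patl2 (0.15), Scrn1 (0.15) and Id2 (0.17). Id2, an inhibitor of basic helix-loop-helix factors, was at 43.7 ± 0.588 CPM with DMSO and 26.8 ± 0.733 with GANC in Control cells, and at 11.8 ± 0.710 and 10.7 ± 1.41 CPM in HSVTK cells. Nearest to Tbx3os2 were Cpe (0.76), Pou2f3 (0.76), Fxyd4 (0.91), Dkkl1 (0.92), Zan (0.92) and Tarm1 (0.93), with 2 unnamed gene models passed over. These distances are several times those around Tbx3. Tbx3 and Tbx3os2 were themselves 1.02 apart, so neither was among the genes nearest to the other.

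**Figure D4:**
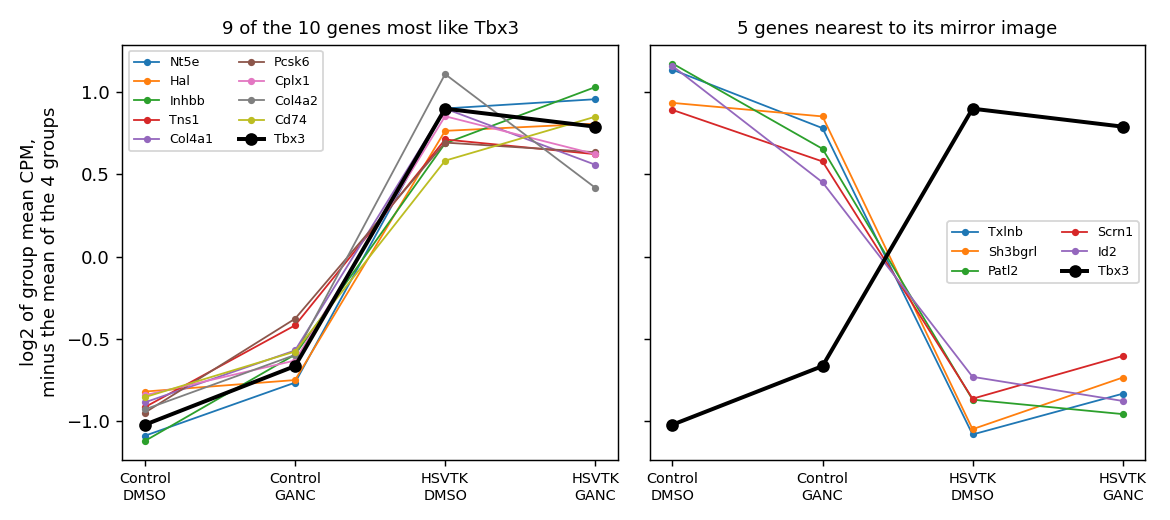
Log2 of the group mean CPM minus the mean over the 4 groups (vertical axis) for Tbx3 in black with 9 of the 10 genes most like it (left) and the 5 genes nearest to its mirror image (right). The genes were chosen for these shapes; Col4a2 falls from HSVTK DMSO to HSVTK GANC and Inhbb rises, on either side of Tbx3.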

How the data were processed

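RNA sequencing of 8 libraries in 4 groups of 2, as labelled, was used. Per the submitters' processing notes, the build was GRCm39 and the tools were featureCounts 2.0.1, HISAT2 2.1.0, fastp 0.23.2 and DESeq2 1.40.2, with no roles given. The authors deposited raw counts per gene, without normalization, and a table of FPKM, which equals those counts per kilobase of gene length and per 1e+06 counts of the library (largest difference 4.87e-06). No deposited column of other samples was present. The sources used here give neither strand nor annotation release, nor how reads with several matches were treated. RNA was extracted with phenol and chloroform.

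The test was edgeR 4.0.16 (R 4.3.3), quasi-likelihood, on the counts, with TMM scaling, filterByExpr, all 8 libraries and a mean per group (4 residual degrees of freedom). Genes were called below an adjusted p (Benjamini-Hochberg, 17976 genes) of 0.05, in 5 comparisons: HSVTK against Control under DMSO and under GANC, GANC against DMSO in each cell group, and the difference of those drug responses. The comparisons share libraries. The SE is the log2 fold change over the root of its F statistic. The test was tried on simulated counts for HSVTK against Control under DMSO (17424 genes). Changes of 1.5-fold, 2-fold and 4-fold were given to 67, 67 and 66 genes with a mean of at least 1 CPM, at trended dispersion. It recovered 68.7% of the 1.5-fold, 86.6% of the 2-fold and 98.5% of the 4-fold changes, with 10 false calls. Far more genes were called in the data, and genes of lower level were not among those changed, so these rates may not hold there. Alternatives used DESeq2 1.42.0 and limma 3.58.1 on log2(FPKM + 1) and log2(FPKM + 0.1).

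The genes and lists were chosen with earlier results of these data known. The text could name both genes of the pair, the 10 and 6 genes most like them and 5 mirror genes, tested T-box, Tbx3-tied and neighbouring genes, and from each other list up to 4 called genes of lowest adjusted p per main comparison. Of these, 2 genes are not reported here by name. Lists of formative factors and of the lineages above served as counts or sums. Annotation came from GENCODE vM21 and RefSeq on GRCm38, another build than the counts, and was used for gene order, structure and promoter sequence.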

Additional observations from a re-analysis of the deposited data

Results flagged for a closer look

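The shift of Tbx3 with GANC went in opposite directions in the cell groups. On the CPM scale, every GANC library was higher than the DMSO libraries in Control cells and lower in HSVTK cells. The HSVTK shift was small (log2 -0.11 ± 0.06), its gap did not exceed the summed SD, and the HSVTK libraries overlapped on the FPKM scale. The difference of the responses, HSVTK minus Control, was -0.46 on the log2 scale and was not tested, because the gene was picked for its group differences. Of all tested genes, 42.2% had a larger absolute difference.

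The difference of the drug responses also passed edgeR's test for the genes below, taken from those given with a test above or from the lineage lists. Of all tested genes, 25.6% passed it, so such calls were common. The response was lower in HSVTK than in Control cells for the receptors and kinase Il6st (log2 difference -0.89), Lifr (-0.66) and Pim1 (-0.96). It was also lower for Klf4 (-0.62), Tfap2c (-1.07), Dppa3 (-1.13), Dnmt3b (-0.33), Cdh1 (-0.47) and Eomes (-0.90). In the Wnt and ERK lists it was lower for Lef1 (-2.66), Cdx1 (-1.04) and Egr1 (-2.09), and in the lineage lists for Col4a1 (-0.66), Col4a2 (-1.02), Tdgf1 (-0.94) and Nodal (-0.33). It was higher for Tbx20 (3.12), Zscan4c (1.10), Zscan4f (1.20), Sp5 (1.47) and Apoe (1.14).

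Single libraries decided some of these calls. Dppa3 lost its call without HSVTK DMSO replicate 2 (adjusted p = 0.0612), Nodal without HSVTK GANC replicate 2 (0.0599), Col4a1 without Control DMSO replicate 1 (0.157) and Col4a2 without Control GANC replicate 2 (0.0583). Sp5 lost it without HSVTK DMSO replicate 2 (0.0545) and likewise with HSVTK GANC replicate 1 left out (0.123). Cdx1 lost it without Control DMSO replicate 1 (0.0977), Control GANC replicate 2 (0.124), HSVTK DMSO replicate 1 (0.0740), and with HSVTK GANC replicate 2 left out (0.0988), and also by DESeq2 (0.0537). The value of Tbx20 was 4.88 without HSVTK DMSO replicate 1.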

How the results depend on the processing

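With 1 library left out, the log2 values of Tbx3 ranged from 1.89 to 1.96 (HSVTK against Control, DMSO), 1.38 to 1.51 (GANC), 0.31 to 0.41 (GANC response, Control), -0.19 to -0.05 (HSVTK) and -0.55 to -0.41 (difference). Those of Tbx3os2 ranged from 2.68 to 5.36, 1.13 to 2.49, 1.28 to 4.07, -0.06 to 0.90 and -3.72 to -0.93. Counts of called genes ranged from 4399 to 6560, 2999 to 4497, 433 to 2010, 3313 to 5627 and 3415 to 4638, with the 433 without Control DMSO replicate 2.

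On log2(FPKM + 1), with or without the filter, Tbx3 was at 1.81 and Tbx3os2 at 1.39 (HSVTK against Control, DMSO), and the GANC response of Tbx3os2 in Control cells at 0.63. That scale understates low genes by construction. Without the filter it called 3652, 2288, 29, 2615 and 1981 genes in the order above. The GANC response in Control cells had 942 calls from its 4 libraries alone, 190 on log2(FPKM + 1) and 251 on log2(FPKM + 0.1).

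No pairing of libraries by replicate number was seen over all genes, and the labels do not say what the numbers share: correlations of deviations ran from -0.0319 to 0.0145 over 6 pairs of groups. A replicate block gave 5882 calls (HSVTK against Control, DMSO), a log2 value of 1.92 for Tbx3 and 3.47 for Tbx3os2. Of 105 calls of genes given with a test, 58 held in all settings run, 47 were lost in at least 1 of 16 and 0 reversed. On log2(FPKM + 1) or log2(FPKM + 0.1), with or without the filter, the lost calls included those of Tbx20, Zscan4d and Rbm19 (HSVTK against Control, DMSO) and Cdkn1a (GANC). The same scales lost the difference of drug responses for Tbx20, Eomes, Dnmt3b, Dppa3, Zscan4c, Lifr, Cdx1, Sp5, Col4a1 and Col4a2. Depth limits Tbx3os2, whose lowest library had 2 counts.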
